A study of Mus musculus with 3 samples.

Results

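Calmodulin genes and genes of small calmodulin regulators were followed across the cell types of the mouse cochlea. The 6 genes were taken by their symbols from the 32285 genes of the count matrices. Calm2 and Calm3 encode calmodulin, and Calml4 encodes a calmodulin-like protein. Pcp4, Pcp4l1 and Nrgn encode small proteins with an IQ motif, a kind of sequence through which proteins can bind calmodulin. Binding was not measured here. All 6 had counts in each of the 3 libraries. The libraries were made from dissociated cochleae of C57/B6 mice, 1 at postnatal day 14 (P14) and 2 at postnatal day 28 (P28 replicates 1 and 2), and each pooled 14 cochleae of 7 mice. Some sensory epithelium of the basal turn was lost in dissection, so hair cells of that turn may be few. RNA molecules were counted at their 3′ ends with the Chromium 3′ kit v3.1 as unique molecular identifiers (UMIs), where 1 UMI stands for 1 captured RNA molecule.

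Calmodulin is the calcium sensor of nearly all animal cells: on binding calcium it changes shape and switches kinases, phosphatases, pumps and channels. The genes named Calm encode 1 and the same protein from different transcripts. Some small IQ-motif proteins hold calmodulin in its calcium-poor or calcium-rich form or change how fast it exchanges calcium. Pcp4 encodes PEP-19, known from Purkinje cells, Pcp4l1 is its paralogue, and Nrgn encodes neurogranin, known from dendrites of forebrain neurons. In cochlear hair cells calcium enters through transduction channels and through voltage-gated channels at the synapse, and outer hair cells carry large amounts of the EF-hand calcium buffer oncomodulin (Ocm).

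A barcode was kept as a cell where it had 200 to 6000 genes and mitochondrial genes took no more than 15% of its UMIs. These were 1662 of 2513 barcodes at P14 and 5651 of 11948 and 7065 of 18196 at P28, with medians of 2477, 2421 and 2037 UMIs. Pairs of libraries shared 4 to 10 kept barcodes. Cells were clustered without the 6 genes and without a list of 70 calmodulin partner genes, and a cluster got a name ending in "-like" from fixed marker genes, so the names do not rest on the genes described here. The main classes were outer hair cell-like (OHC-like), inner hair cell-like (IHC-like) and spiral ganglion neuron-like (SGN-like) cells. OHC-like cells numbered 277 at P14 and 365 and 284 at P28, and IHC-like cells 60, 113 and 76. SGN-like cells numbered 334 and 297 at P28, and no P14 cluster was named so. Levels of markers from the naming lists are given as a description, not as an independent check, since the names rest on them. Slc17a8, the glutamate transporter of IHCs, was at 1593, 1681 and 1852 CPM (UMIs per 1000000 UMIs of the class) in IHC-like cells and at 16 to 79.0 in OHC-like cells, while Slc26a5, the OHC motor prestin, was 2026, 532 and 653 CPM in the OHC-like class and 0 to 3.96 in the IHC-like class. Otof, the calcium sensor of the IHC synapse, was at 2935 to 3328 CPM in IHC-like cells and at 69.8 to 496 in OHC-like cells. Not every listed IHC marker separated them in this direction. Acbd7 was higher in OHC-like cells, at 1742, 1187 and 1184 CPM against 1557, 725 and 775. IHC-like cells at P14 were shallow, with a median of 1025.5 UMIs per cell against 9310 and 8007.5 at P28, whereas OHC-like cells had medians of 6510, 5244 and 3752.5. Levels below are in CPM over all UMIs of a class in a library. In order P14, P28 replicate 1 and P28 replicate 2, they carry exact 95% Poisson intervals that cover counting error only.

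The 6 genes lie on different stretches of the genome (build GRCm38, annotation GENCODE M21). Calm2 is at chr17:87433412-87446935 and Calm3 at chr7:16915379-16924114, both on the minus strand. Calml4 is at chr9:62858080-62875921 on the plus strand and overlaps the antisense gene Gm10653. Pcp4 is at chr16:96467606-96525793 on the plus strand, Pcp4l1 at chr1:171173262-171196268 on the minus strand and Nrgn at chr9:37544492-37552904 on the minus strand. Pcp4 shares 30.6% of the 31-base words in the last 500 bases of its transcripts with an overlapping gene on the same strand, Igsf5. This gene was listed with at most 7 UMIs in OHC-like cells of any library and with 0 in IHC-like cells. Reads of Pcp4 in the shared words could be lost, and the UMIs of Igsf5 do not measure such a loss. Of the 31-base words at the ends of their transcripts, 18.3% of Calm2 and 5.98% of Calm3 occur in other annotated genes, most often Gm7308 and Gm5881. Reads could be lost to such copies, but none of the words is shared between Calm2 and Calm3.

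The IQ motif of Pcp4, Pcp4l1 and Nrgn is shown by its codons, because these 3 genes share this feature and differ in where they are expressed. The codons show that the motif is present, not that each protein binds calmodulin. The 48 coding bases lie at chr16:96525458-96525505 (plus strand) in Pcp4, chr1:171174395-171174442 (minus strand) in Pcp4l1 and chr9:37546052-37546099 (minus strand) in Nrgn. Each lies in a single coding exon. Capitals mark the codons for the isoleucine and glutamine that name the motif and the codon of its conserved arginine.

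Pcp4: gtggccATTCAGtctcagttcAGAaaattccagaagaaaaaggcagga
Pcp4l1: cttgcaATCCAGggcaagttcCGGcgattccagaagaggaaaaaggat
Nrgn: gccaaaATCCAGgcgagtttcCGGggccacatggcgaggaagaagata

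Calm2 and Calm3 are separate transcripts of 1 protein, and their UMIs can be told apart although their proteins cannot. Of their 447 coding bases, without the stop codon, 369 were identical (82.6%) and 78 differed, and in all 149 codons both encoded the same residue. The 36 bases of the first calcium-binding loop show this on a small scale. They are codons 21 to 32 counted from the start codon, at chr17:87435873-87435908 in Calm2 and chr7:16917667-16917702 in Calm3, both on the minus strand. Capitals mark the 7 bases that differ.

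Calm2: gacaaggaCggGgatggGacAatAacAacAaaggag
Calm3: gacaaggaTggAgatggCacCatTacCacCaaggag

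Calm2 was high in all 3 sensory and neural classes and highest in IHC-like cells. Its level in IHC-like cells was 7709 CPM at P14 (7370 to 8060) and 5926 (5774 to 6081) and 6520 (6317 to 6729) at P28. In OHC-like cells it was 1629 (1572 to 1688), 2395 (2335 to 2457) and 2443 (2362 to 2527) CPM, and in SGN-like cells 2806 (2750 to 2863) and 2939 (2880 to 2999). Every IHC-like value lay above every OHC-like and SGN-like value. An IHC-like cell held a median of 10.5, 51 and 52.5 Calm2 UMIs, an OHC-like cell 9, 14 and 10, and an SGN-like cell 16 and 37. In the 47 other class and library sums Calm2 lay between 147 and 1628 CPM with a median of 485.

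Calm3 had another order. It was highest in SGN-like cells, at 1273 (1236 to 1312) and 1317 (1278 to 1357) CPM, which is where Calm2 was second. OHC-like cells held 359 (333 to 387), 477 (450 to 505) and 476 (440 to 514) CPM, and IHC-like cells 325 (258 to 403), 351 (315 to 390) and 336 (291 to 386). Hair cells therefore lay within the range of the other sums, 80.4 to 555 CPM with a median of 259. An SGN-like cell held a median of 8.5 and 15 Calm3 UMIs against 2, 3 and 2 in an OHC-like cell.

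Calm3 thus made up an unequal share of the UMIs of these 2 calmodulin genes, as the plot of calmodulin balance shows. It was 18.1%, 16.6% and 16.3% in OHC-like cells, 4.04%, 5.59% and 4.91% in IHC-like cells, and 31.2% and 30.9% in SGN-like cells. The exact 95% binomial intervals were 15.2% to 19.3% over the OHC-like values, 3.23% to 6.20% over the IHC-like values and 30.2% to 32.0% over the SGN-like values, so the 3 classes did not overlap. In the other sums the share ran from 13.5% in a P28 cluster led by Ceacam16, Tcap and Slc26a4 to 56.5% in 13 granulocyte-like cells. These shares cover Calm2 and Calm3 only.

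**Figure D1:**
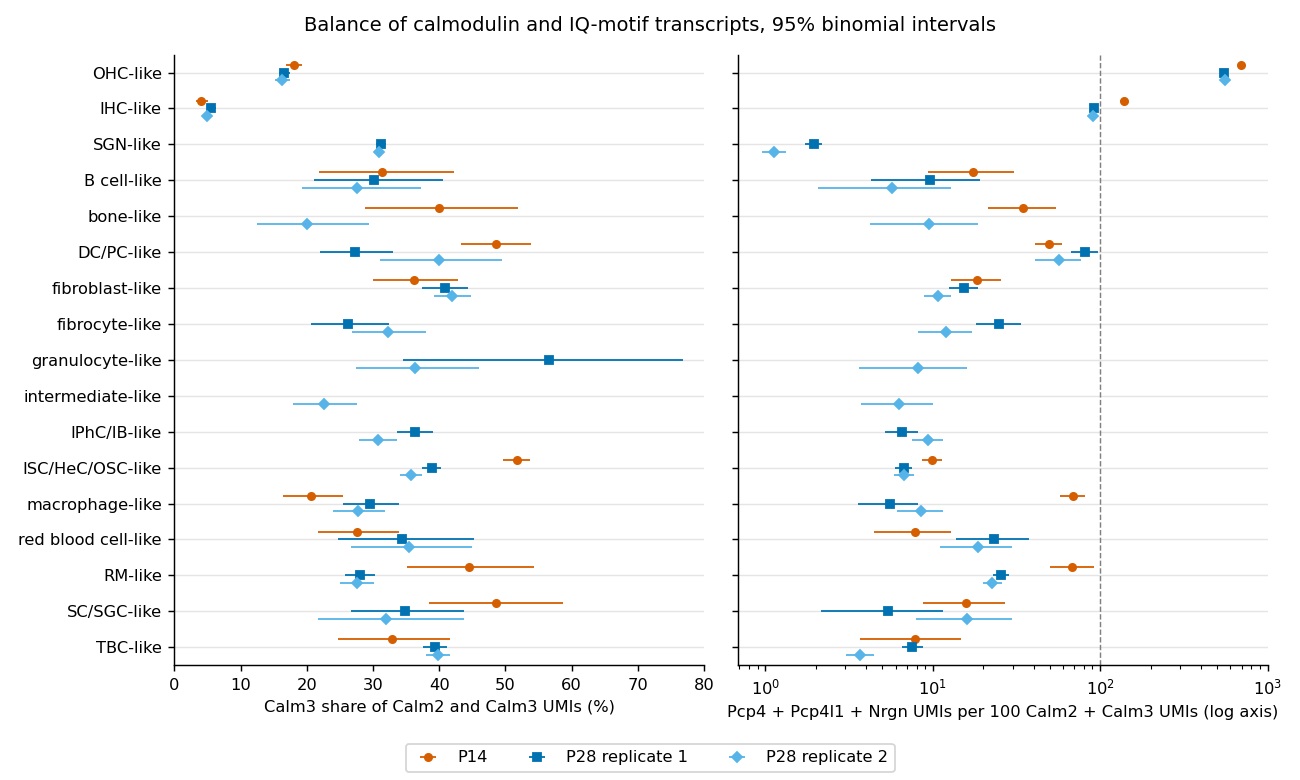
Left, Calm3 as a percentage of Calm2 and Calm3 UMIs, and right, UMIs of Pcp4, Pcp4l1 and Nrgn per 100 UMIs of Calm2 and Calm3 (log axis, dashed line at 100), in each named class. Points are libraries with exact 95% binomial intervals, a sum without IQ-motif UMIs is not drawn on the right, IHC-like cells have the lowest Calm3 share (4.04% to 5.59%) and OHC-like cells the highest ratio on the right (553 to 695).

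Calml4 was highest in hair cells. Its protein is known as a light chain of myosin-7b in the brush border of the gut. OHC-like cells held 1291 (1240 to 1343), 1381 (1335 to 1428) and 1349 (1288 to 1411) CPM, and IHC-like cells 1085 (961 to 1222), 517 (473 to 564) and 531 (474 to 593). The P14 IHC-like value stood near the OHC-like values and at 2.07 times the P28 mean. SGN-like cells held 7.30 and 6.78 CPM from 25 and 22 UMIs, below all but 4 sums of other classes that were at 0. Outside hair cells Calml4 was highest in Reissner's membrane-like (RM-like) cells, with 276, 435 and 344 CPM, and in the P28 cluster led by Ceacam16, Tcap and Slc26a4, with 366 and 259 CPM. The median of the 47 other sums was 39.9 CPM.

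Pcp4 had the highest level of the 6 genes. OHC-like cells held 13771 (13603 to 13940), 15868 (15712 to 16026) and 16328 (16116 to 16542) CPM, or a median of 90, 95 and 68 UMIs per cell. IHC-like cells held 10724 (10324 to 11136), 5651 (5503 to 5803) and 6075 (5878 to 6276) CPM, or a median of 21, 46 and 45.5 UMIs per cell. All OHC-like values were above all IHC-like values, and the gap was smallest at P14. No other sum reached 1000 CPM. RM-like cells held 713, 343 and 296 CPM, the P28 cluster led by Ceacam16 233 and 155, and Deiters'/pillar cell-like (DC/PC-like) cells 381, 602 and 373.

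RNA released from broken hair cells can enter any droplet, so each level of Pcp4 was set beside the level that would have come with the Ocm UMIs of that sum at the ratio of OHC-like cells. In RM-like cells this carried level was 45.9, 27.4 and 8.01 CPM, and in the Ceacam16-led cluster 17.2 and 9.76, and the observed RM-like level was 15.5, 12.5 and 36.9 times as high. In DC/PC-like cells it was 141, 481 and 319 CPM, and the observed level was 2.69, 1.25 and 1.17 times as high. In SGN-like cells the observed 70.7 and 40.1 CPM stood beside carried levels of 52.2 and 37.7. P14 macrophage-like cells had 651 CPM of Pcp4 and a carried level of 421. In IHC-like cells the carried level was 66.1, 250 and 302 CPM, and the observed level was 162, 22.6 and 20.1 times as high.

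Pcp4l1 was rare in every class. IHC-like cells held 162 (117 to 220), 25.8 (16.7 to 38.1) and 32.0 (19.2 to 49.9) CPM from 41, 25 and 19 UMIs. OHC-like cells held 57.6 (47.2 to 69.5), 8.10 (4.95 to 12.5) and 4.33 (1.59 to 9.42) CPM from 108, 20 and 6 UMIs, and SGN-like cells 8.18 and 8.02 CPM. In both hair cell classes the P14 library was the highest of the 3. Fibrocyte-like cells, known as the fluid-regulating connective tissue of the lateral wall, reached 85.1 and 51.0 CPM at P28, above the IHC-like cells of that age. In the other sums the range was 0 to 107 CPM with a median of 6.95, and 7 sums were at 0.

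Nrgn was found in IHC-like cells, with few or no UMIs in OHC-like and SGN-like cells. IHC-like cells held 301 (237 to 377), 69.1 (53.6 to 87.8) and 75.7 (55.2 to 101) CPM from 76, 67 and 45 UMIs. OHC-like cells held 0, 1 and 0 UMIs of Nrgn, where 3 counts would have been 1.60, 1.22 and 2.16 CPM, and SGN-like cells held 1 and 0. Of the 47 other sums 26 were at 0. B cell-like cells at P28 came nearest, with 76.1 and 32.2 CPM, but from only 7 and 4 UMIs in 27 and 38 cells. Platelets are known to carry Nrgn, and of their 5 listed markers 1 or 2 were found in a library's IHC-like cells, at 3.96 to 6.73 CPM in sum, with Gp9 and Ppbp at 0.

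**Figure D2:**
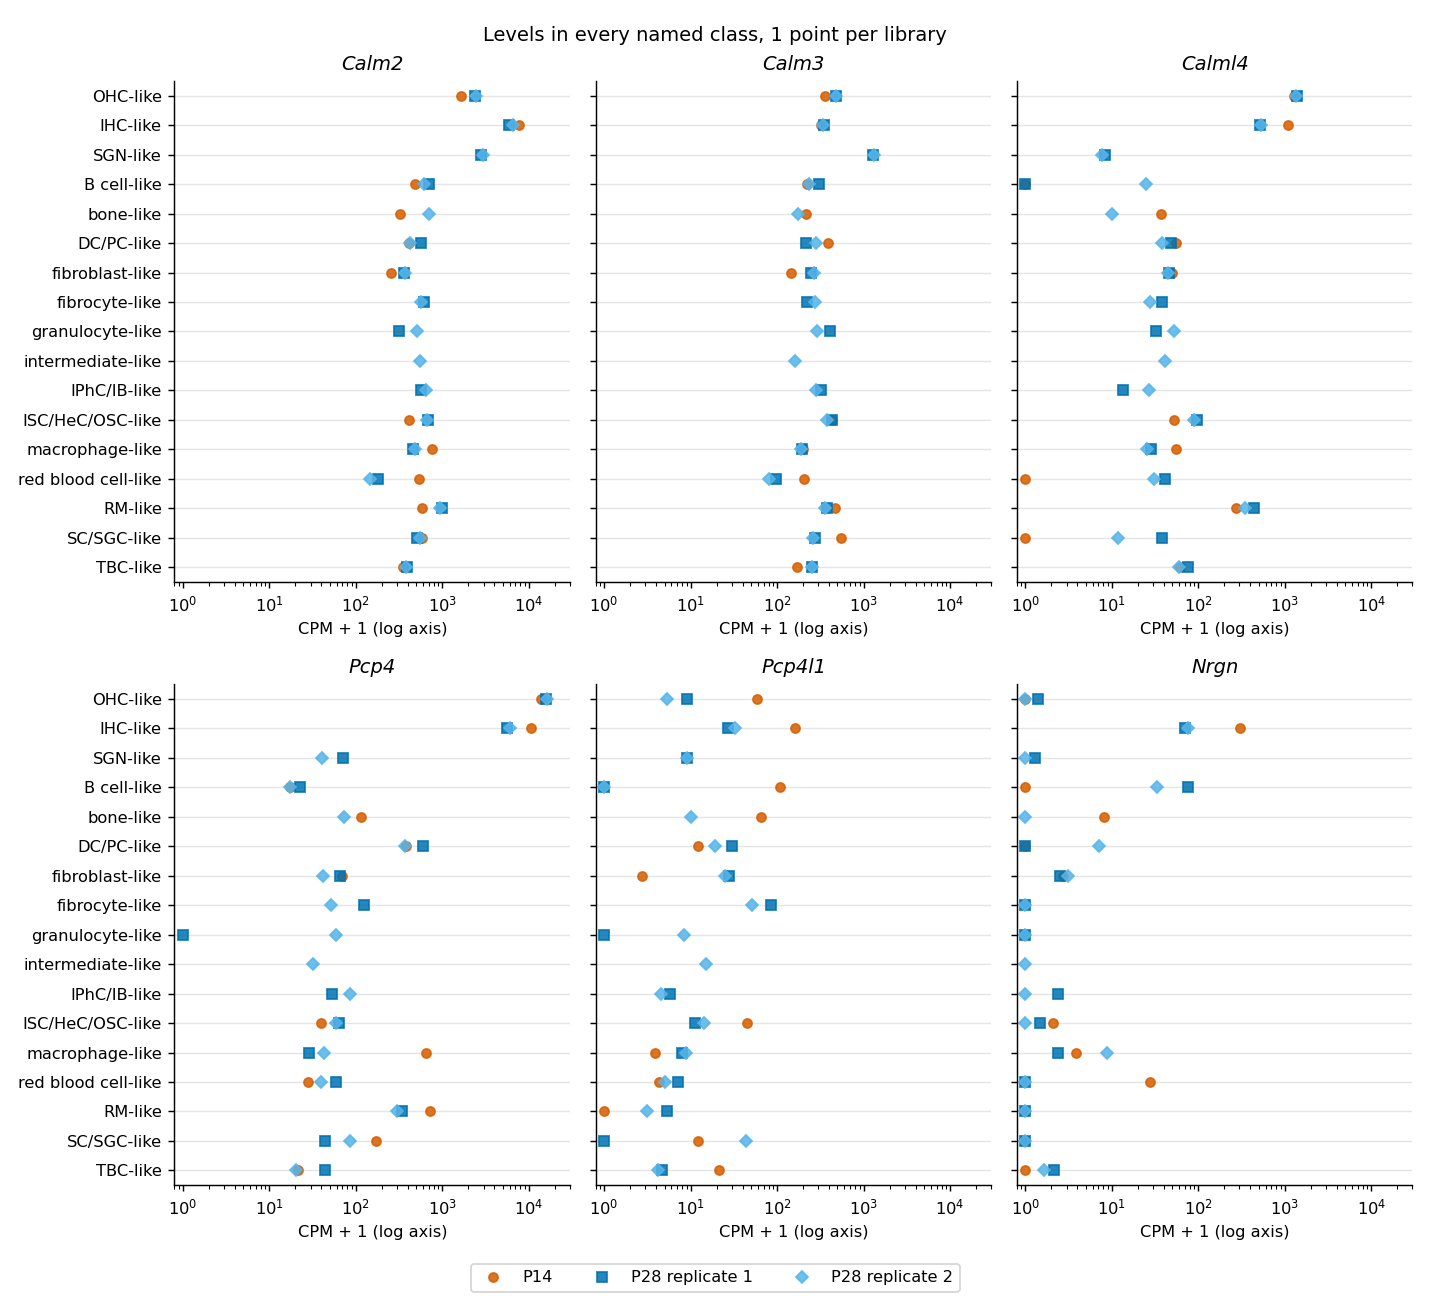
Level of each gene (CPM + 1, log axis) in all 17 named classes, 1 point per library. Pcp4 is above 5000 CPM in OHC-like and IHC-like cells and below 1000 in all others, Calm3 is highest in SGN-like cells, and Nrgn is above 60 CPM at both ages in IHC-like cells only.

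At P28, where a second library gives a spread, the first classes did not overlap for Calm2, Calm3, Calml4 and Pcp4, but did for Pcp4l1 and Nrgn. Calm2 ran from IHC-like (6223 ± 420 CPM, SD, n = 2) to SGN-like (2872 ± 94.0), OHC-like (2419 ± 33.9), the Ceacam16-led cluster (1436 ± 272) and RM-like cells (965 ± 20.8), and no neighbours among these overlapped. Calm3 ran from SGN-like (1295 ± 30.7) to OHC-like cells (476 ± 0.525), and IHC-like cells were at place 6 (344 ± 10.2). Calml4 ran from OHC-like (1365 ± 23.0) to IHC-like (524 ± 10.2) and RM-like cells (390 ± 64.4), of which the last overlapped with the next cluster. Pcp4 ran from OHC-like (16098 ± 325) to IHC-like (5863 ± 299) and DC/PC-like cells (487 ± 162). For Pcp4l1 the first place of fibrocyte-like cells (68.0 ± 24.1) overlapped with the second, and IHC-like cells (28.9 ± 4.35) overlapped with the classes on both sides. For Nrgn the first place of IHC-like cells (72.4 ± 4.63) overlapped with B cell-like cells (54.2 ± 31). Over the 19 pairs of neighbours, overlap was found in 10 for Calm2, 14 for Calm3, 15 for Calml4, 12 for Pcp4, 17 for Pcp4l1 and 18 for Nrgn.

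The classes differed in depth, so shares of cells with a UMI were taken after each cell had been thinned to 1000 UMIs, which left 260, 363 and 284 OHC-like, 31, 99 and 72 IHC-like, and 307 and 295 SGN-like cells. Pcp4 was then found in 97.7%, 100% and 99.6% of OHC-like cells and in 100%, 94.9% and 97.2% of IHC-like cells. In tympanic border cell-like (TBC-like) cells, a connective tissue class with medians of 2118, 2026 and 2197 UMIs, it was found in 1.8%, 4.9% and 2.5%. SGN-like cells with Pcp4 were 11.7% and 2.4%, so the second value was at the level of TBC-like cells. Calm2 reached 71.5%, 92.0% and 89.4% of OHC-like, 100%, 97.0% and 97.2% of IHC-like, and 89.9% and 89.8% of SGN-like cells. Calm3 was found in 62.9% and 62.0% of SGN-like cells but in 22.2% to 42.4% of hair cells. Calml4 reached 68.8% to 77.5% of OHC-like cells but 42.4% to 54.8% of IHC-like cells, against 3.5% to 6.3% of TBC-like cells. Nrgn was found in 22.6%, 4.0% and 15.3% of thinned IHC-like cells and in 0 of the thinned OHC-like cells, which allows a share of up to 1.41% (exact 95% upper limit, P14) for cells with a UMI at this depth, not for cells that express the gene, and without thinning in 46.7%, 31% and 30.3% of IHC-like cells.

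**Figure D3:**
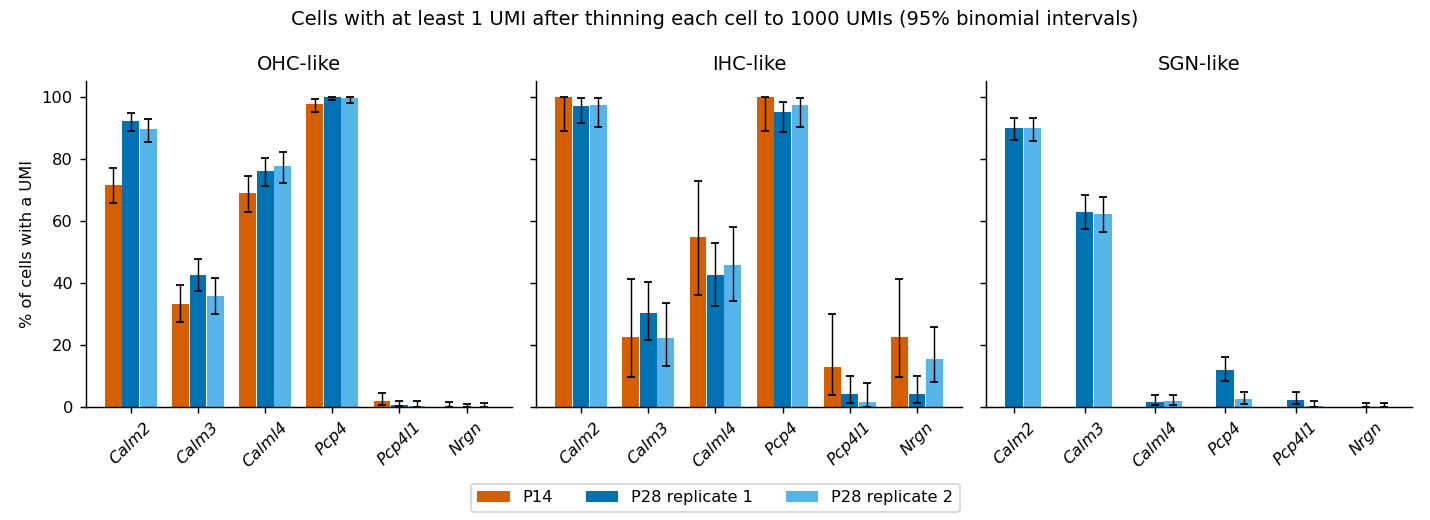
Percentage of cells with at least 1 UMI of each gene after thinning to 1000 UMIs per cell, with exact 95% binomial intervals, for OHC-like, IHC-like and SGN-like cells. Bars are libraries, and Pcp4 reaches 94.9% to 100% in both hair cell classes but 11.7% and 2.4% in SGN-like cells.

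Levels differed between the clusters of a class. OHC-like cells at P28 came from 2 clusters that held 15835 to 16845 CPM of Pcp4 and 2297 to 2719 of Calm2. At P14 there were 3 clusters. The larger ones, of 195 and 51 cells, had 15382 and 11074 CPM of Pcp4, and 31 cells of another cluster, led by Dytn, Lmo7 and Ighm, had 3544 CPM of Pcp4 and 440 of Calm2. This last cluster had a median of 917 UMIs per cell, of which Malat1, a nuclear RNA, made up 15.7%. Among SGN-like cells the main cluster, led by Snap25, Nefh and Ndrg4, had 2905 and 3059 CPM of Calm2 and 1333 and 1356 of Calm3. In 8 and 16 cells of a cluster led by Prune2, Rph3a and Gldn, Calm3 stood at 1144 and 1125 CPM beside Calm2 at 898 and 1079. In P28 replicate 1 these levels came from only 107 and 84 UMIs. Whether the 2 genes differed in this cluster was not tested. The Pcp4 of SGN-like cells was low in the main cluster, at 5.68 and 28.9 CPM, and stood at 568 and 293 CPM in a shallow cluster of 139 and 41 cells, where Calml4 was at 64.2 and 76.8 CPM.

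The hair cell classes were set against each other on UMIs summed per class and library, with 3 sums on each side and the library in the model. All log2 fold changes between classes are those of edgeR's quasi-likelihood test with their standard errors (SE), and p-values were adjusted over all genes tested by the Benjamini-Hochberg method. With the library in the model, they measure how the class difference varied between these libraries, each a pool of mice. Since 1 of the libraries is P14, any change of that difference with age is part of this spread. The SE of Pcp4 was 0.023 without the P14 library and 0.20 with it. Calls are those under 0.05, and among 9500 genes OHC-like cells were higher in 16.8% and lower in 17.2%. All 6 genes passed edgeR's filter on low counts. Nrgn passed through its IHC-like UMIs alone, so no test of it is given here or below. Pcp4l1 also needed its IHC-like sums to pass, since most of its OHC-like sums lay below the filter's level. Its call between the hair cell classes is therefore not read as a result. Pcp4 was higher in OHC-like cells by 1.23 on the log2 scale (SE 0.20, adjusted p = 0.00107) and Calml4 by 1.15 (SE 0.22, adjusted p = 0.00303). Calm3 was higher by 0.51 (SE 0.15, adjusted p = 0.0244). Calm2 fell by 1.51 from IHC-like to OHC-like cells (SE 0.18, adjusted p = 0.000159). The level of Pcp4l1 was higher in the IHC-like cells of each library. Nrgn had 1 UMI in OHC-like and 188 in IHC-like cells.

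The direction was the same in all 3 libraries for each of these genes, but not every call was firm. Calm3 lost its call without either P28 library (adjusted p = 0.267 without replicate 1 and 0.265 without replicate 2) and with DESeq2 (0.122). Calml4 lost it without P28 replicate 1 (0.0641). Without the library term the adjusted p was 0.12 for Calm3 and 0.0784 for Calml4. The calls of Calm2 (18 alternatives) and Pcp4 (18) held under each alternative tried.

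**Figure D4:**
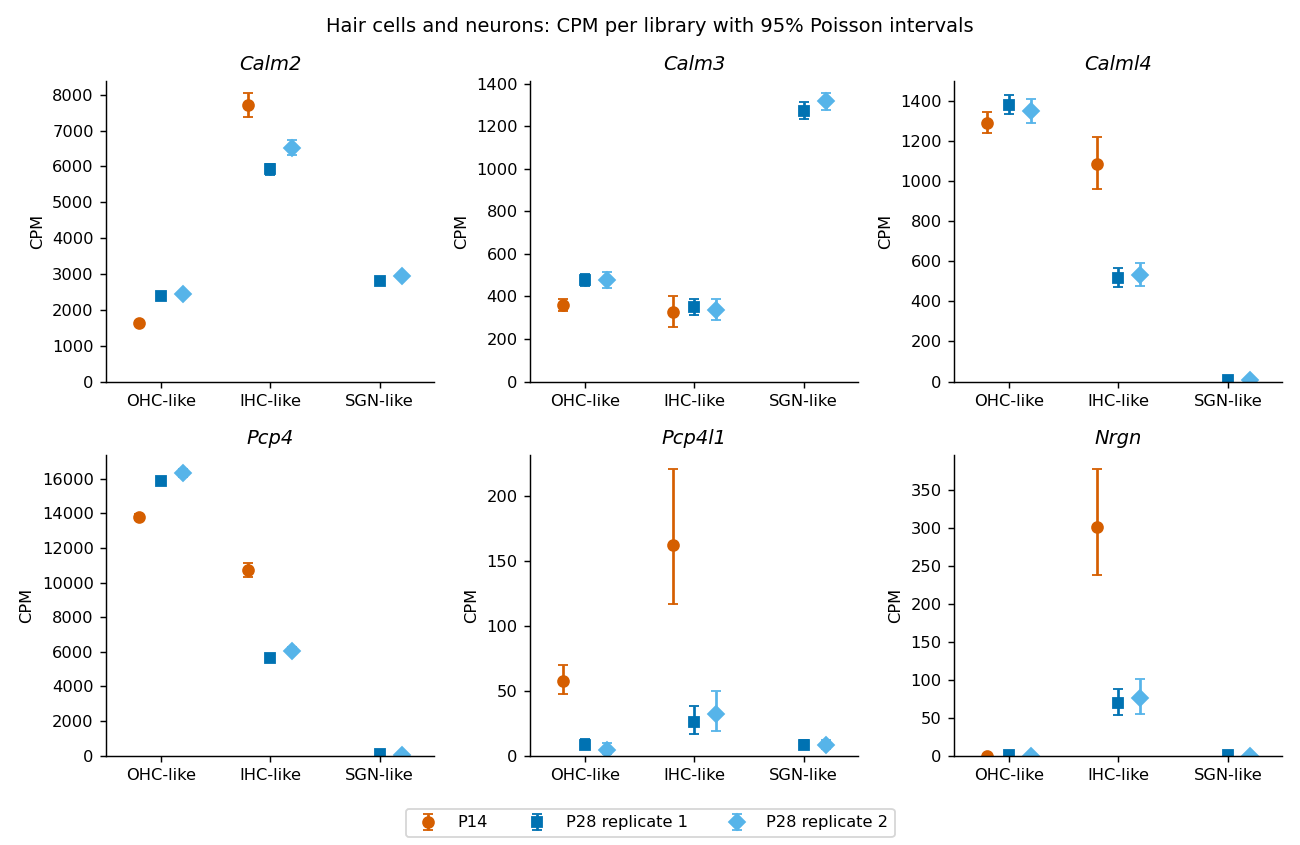
Level of each gene (CPM, linear axes that start at 0) in OHC-like, IHC-like and SGN-like cells, 1 point per library with exact 95% Poisson intervals. Calm2 and Nrgn are higher in all IHC-like libraries, Pcp4 and Calml4 in all OHC-like libraries, and Calm3 in both SGN-like libraries.

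Against SGN-like cells, only the P28 libraries could be used, 2 sums against 2 without a library term. Of 12207 genes, 34.7% were higher and 37.5% lower in OHC-like than in SGN-like cells. Among the 5 genes that passed the filter, Pcp4 was higher by 8.24 (SE 0.20, adjusted p = 9.27e-14) and Calml4 by 7.65 (SE 0.14, adjusted p = 1.35e-14), and Calm3 fell by 1.38 (SE 0.09, adjusted p = 3.08e-09). Calm2 differed by -0.19 (SE 0.08, adjusted p = 0.0519, and 0.001 with a library term), but by 0.32 with at most 3000 genes and 15000 UMIs per cell, and Pcp4l1 by -0.22 (SE 0.37, adjusted p = 0.617). Nrgn, with 2 UMIs in all, was not tested.

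IHC-like cells differed from SGN-like cells in Calm2, Calm3, Calml4, Pcp4 and Pcp4l1. Of 11754 genes, 30.3% were higher and 35.5% lower in IHC-like cells. Pcp4 was higher by 6.63 (SE 0.17, adjusted p = 1.48e-16), Calml4 by 6.12 (SE 0.15, adjusted p = 5.54e-17), Pcp4l1 by 1.71 (SE 0.31, adjusted p = 8.6e-05) and Calm2 by 1.03 (SE 0.08, adjusted p = 1.46e-09). Nrgn had 112 UMIs in IHC-like and 1 in SGN-like cells. Calm3 was the exception and fell by 2.00 from SGN-like to IHC-like cells (SE 0.09, adjusted p = 6.56e-13).

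Each class was then set against all other cells. For hair cells these were all cells outside both hair cell classes, SGN-like cells included. At P28 SGN-like cells supplied 8630 of the 19046 Calm3 UMIs and 19138 of the 38060 Calm2 UMIs of these other cells. Hair cells were not tested against other cells without them. OHC-like cells were higher in 24.0% and lower in 30.1% of 13007 genes. Pcp4 was higher by 7.59 (SE 0.45, adjusted p = 0.00176), Calml4 by 4.49 (SE 0.14, adjusted p = 0.000824) and Calm2 by 1.67 (SE 0.13, adjusted p = 0.00321). Calm3 differed by 0.14 (SE 0.12, adjusted p = 0.358, and 0.00978 without the P14 library) and Pcp4l1 by 0.08 (SE 0.42, adjusted p = 0.888), and Nrgn did not pass the filter. In IHC-like cells 13.3% of 12673 genes were higher and 22.5% lower. Pcp4 was higher there by 6.21 (SE 0.27, adjusted p = 7.74e-05), Calml4 by 3.19 (SE 0.35, adjusted p = 0.000902), Calm2 by 3.03 (SE 0.34, adjusted p = 0.00104) and Pcp4l1 by 1.63 (SE 0.28, adjusted p = 0.00526, and 0.149 without the library term). The call of Pcp4l1 held in 15 of 18 alternatives, with log2 fold changes from 1.08 to 1.84. Nrgn had 188 UMIs in IHC-like cells and 61 in all other cells. Calm3 differed by -0.51 (SE 0.19, adjusted p = 0.0775, and 4.57e-06 without the P14 library). The fits without the P14 library, here and for OHC-like cells, rest on the 2 P28 libraries and leave few residual degrees of freedom. Their adjusted p-values are not read as stronger than those with all 3 libraries.

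For SGN-like cells the other cells were those outside the hair cell and SGN-like classes at P28. Of 14933 genes, 36.2% were higher and 42.5% lower in SGN-like cells. Both calmodulin genes were higher, Calm2 by 2.32 (SE 0.11, adjusted p = 8.5e-08) and Calm3 by 2.03 (SE 0.11, adjusted p = 1.92e-07). Calml4 fell by 3.62 (SE 0.18, adjusted p = 1.64e-07), and Pcp4l1 fell by 0.49 (SE 0.20, adjusted p = 0.0485, and 0.0589 with a library term). The call of Pcp4l1 was not firm, since it held in only 9 of 15 alternatives, with log2 fold changes from -0.72 to 0.10. Nrgn had 1 UMI in SGN-like and 46 in other cells. Pcp4 differed by -0.45 (SE 0.24, adjusted p = 0.116, and 0.000392 with a library term), but the direction turned to 2.04 with at most 3000 genes and 15000 UMIs per cell and to 0.74 after thinning.

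The transcripts of the IQ-motif genes and those of calmodulin were thus in very different proportions. For every 100 UMIs of Calm2 and Calm3, OHC-like cells held 695, 553 and 559 UMIs of Pcp4, Pcp4l1 and Nrgn together, IHC-like cells 139, 91.6 and 90.2, and SGN-like cells 1.94 and 1.13. The 95% intervals of the 3 classes did not overlap in any library. The next highest were DC/PC-like cells with 49.2, 81.1 and 56.5, whose observed Pcp4 was 1.25 and 1.17 times the carried level at P28, RM-like cells with 68.2, 25.5 and 22.7, and macrophage-like cells with 68.9, 5.53 and 8.49. In hair cells Pcp4 made up most of these UMIs.

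With 1 library at P14, the ages were compared as a description. A level was counted where P14 lay at least 2-fold above or below both P28 libraries, among genes at 50 CPM or more at P14 or in both P28 libraries, in the 11 classes with 20 or more cells in each library. Of 41 levels of the 6 genes compared, 10 were past 2-fold, all higher at P14. The rule admits a level on the P14 library alone but otherwise needs both P28 libraries, which favours levels high at P14. Pcp4l1 in OHC-like, IHC-like and B cell-like cells and Pcp4 in macrophage-like cells entered through their P14 level only. Nrgn in B cell-like cells, at 0 CPM against 76.1 and 32.2, did not enter. The count and its direction are therefore not read as a result, and no share over all genes was taken for the 11 classes together. In OHC-like cells 5.35% of 3888 genes were higher and 4.73% lower at P14, and in IHC-like cells 9.23% of 4408 genes were higher and 13.0% lower.

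Pcp4l1 alone among the 6 genes was past this limit in OHC-like cells, at 57.6 CPM against 8.10 and 4.33, or 9.26 times the P28 mean. Calm2 stood at 0.674 times the P28 mean, Calm3 at 0.754, Pcp4 at 0.855 and Calml4 at 0.946. In IHC-like cells Pcp4l1 (5.63 times), Nrgn (4.16 times) and Calml4 (2.07 times) were past it. Pcp4 at 1.83 times and Calm2 at 1.24 times were not, and Calm3 was at 0.946 times the P28 mean. The P14 IHC-like cells were those with the median of 1025.5 UMIs. With all cells thinned to 1000 UMIs, the log2 ratio of P14 to P28 in IHC-like cells was 2.21 for Pcp4l1, 1.87 for Nrgn and 0.56 for Calml4, so Calml4 was no longer past 2-fold, and Pcp4l1 in OHC-like cells was at 1.88.

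Elsewhere, 6 levels were past 2-fold. In RM-like cells, where 9.51% of 4302 genes were higher at P14, Pcp4 stood at 713 CPM against 343 and 296. In macrophage-like cells, where 7.21% of 3553 genes were higher, Pcp4 stood at 651 CPM against 27.8 and 41.4, and Ocm at 959 CPM against 16.7 and 49.1. In Schwann/satellite glia-like (SC/SGC-like) cells, where 18.0% of 3988 genes were higher, Calm3 stood at 555 CPM against 275 and 257. In red blood cell-like cells Calm2 and Calm3 were at 533 and 203 CPM at P14 and at 147 to 181 and 80.4 to 95.2 at P28, but there 67.8% of 2189 genes were higher at P14. In B cell-like cells, where 18.1% of 3328 genes were higher, Pcp4l1 was at 107 CPM from 13 UMIs at P14 and at 0 in both P28 libraries.

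**Figure D5:**
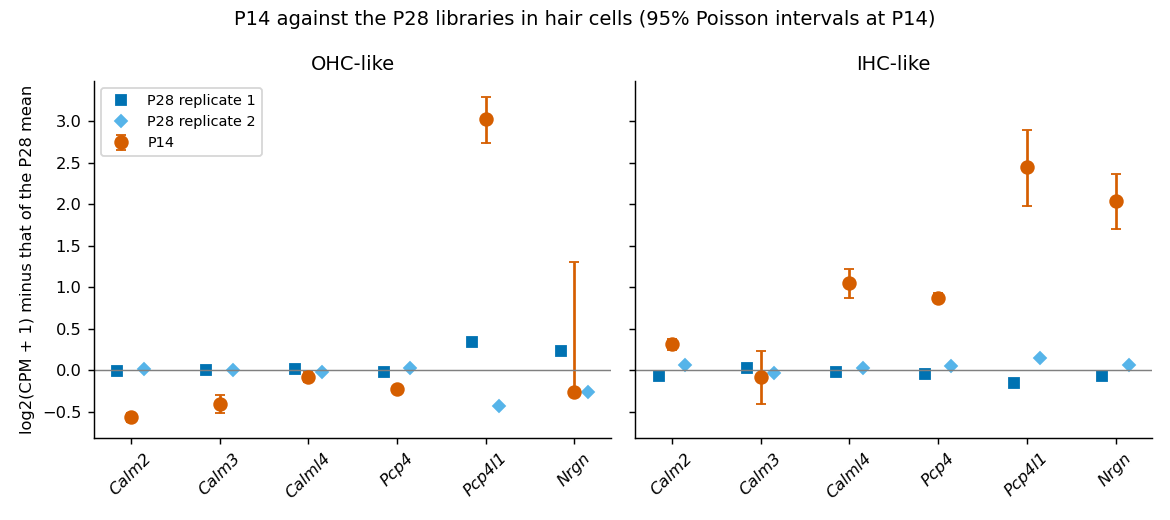
Difference of log2(CPM + 1) from that of the P28 mean for each gene in OHC-like and IHC-like cells, with P14 and both P28 libraries as points and an exact 95% Poisson interval at P14. Pcp4l1 is higher at P14 in both classes (3.02 and 2.45), and Nrgn (2.04) and Calml4 (1.05) in IHC-like cells.

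Partners of calmodulin were read from a list of 70 genes in 6 groups. Of 40 that could be tested between the hair cell classes, 10 were called higher in OHC-like cells and 16 were called lower, beside 16.8% and 17.2% of all genes, and their median log2 fold change was -0.26 against 0.05 over all genes. Among the 13 calmodulin-bound pumps and channels, 5 were tested, 4 were called higher and 1 was called lower. Of the 4, Ryr2 passed the filter on low counts through its OHC-like UMIs alone (234 against 1), so its call is not read as a result. Atp2b2, the plasma membrane calcium pump of stereocilia, had OHC-like levels of 799, 534 and 547 CPM beside IHC-like levels of 43.6, 50.6 and 47.1 (log2 fold change 3.77, SE 0.19). Its relative Atp2b1 went the other way, with 318, 277 and 266 CPM against 824, 827 and 827 (SE 0.14 around -1.39). Kcnn2, the calcium-activated potassium channel of the efferent synapse, had OHC-like levels of 200.4, 219 and 192 CPM beside IHC-like levels of 31.7, 14.4 and 15.1, and Ryr2, a calcium release channel, at 23.5, 53.5 and 41.8 against 0, 0 and 1.68.

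Calcium-binding proteins (CaBPs) are EF-hand relatives of calmodulin that act on calcium channels. Of the 9 genes in the group of calmodulin-like proteins and CaBPs, 4 were tested and all 4 were called lower in OHC-like cells. Of these, Cabp1 passed the filter through its IHC-like UMIs alone (154 against 10), and Cabp7 also needed its IHC-like sums to pass. Their calls are not read as results. Cabp1 stood at 1.07, 1.22 and 3.61 CPM against 79.2, 87.7 and 82.4, and Cabp7 at 4.80, 14.6 and 10.8 against 99.0, 93.9 and 85.8. Of 17 calmodulin-dependent kinases and their inhibitors, 9 were tested, 2 were higher and 4 lower. Camk2b, a subunit of CaM kinase II, and Camk2n1, an inhibitor of that kinase, were higher by 0.64 and 0.86 on the log2 scale. The inhibitor Camk2n2 and the elongation factor 2 kinase Eef2k fell by 0.98 and 1.12. The death-associated kinase Dapk1 stood at 37.8, 10.1 and 7.93 CPM against 63.4, 65.0 and 62.2. It needed its IHC-like sums to pass the filter, so its call is not read as a result.

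Of 9 genes of calcineurin, the calmodulin-dependent phosphatase, and its regulators, 8 were tested. Its catalytic subunit Ppp3ca was higher in OHC-like cells by 0.62, and Chp1 and Rcan3 fell by 1.01 and 1.41. Of 7 cyclic nucleotide and nitric oxide enzymes only the calmodulin-activated adenylyl cyclase Adcy8 was tested. Its OHC-like levels of 16.5, 32.4 and 28.8 CPM lay beside IHC-like levels of 3.96, 16.5 and 16.8. Adcy8 needed its OHC-like sums to pass the filter, so its call is not read as a result. Of 15 cytoskeletal and membrane binders of calmodulin, 13 were tested, of which 2 rose and 5 fell in OHC-like cells. Camsap3, a binder of microtubule minus ends, was higher by 2.31 and Iqsec1 by 0.91. The actin-linked Marcksl1 and the striatin gene Strn fell by 2.60 and 0.80. The scaffold Iqgap1 stood at 7.995, 25.1 and 31.7 CPM against 95.1, 126 and 111. It needed its IHC-like sums to pass the filter, so its call is not read as a result. Ryr2, Cabp1, Cabp7, Dapk1, Adcy8 and Iqgap1 are also in the counts of called partners above, and no p-value of theirs is given. Adjusted p-values of the other partner genes named here ran from 1.27e-06 for Atp2b2 to 0.0149 for Camk2b.

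Over 43 sums of named classes with 20 or more cells, the genes most like each of the 6 were found by Pearson's r of log2(CPM + 10) among 6545 genes. These are descriptions without a test, since sums share libraries and hair cell classes carry much of the range. Pcp4 was most like Syne4 (0.94), Tmc1 (0.93), Lrtm2 (0.93), 2210011C24Rik (0.93) and Osbp2 (0.92), of which Tmc1 encodes a part of the transduction channel. Calml4 was most like Ociad2 (0.86), Nhlrc2 (0.86), Ccdc68 (0.85), Eps8l2 (0.85) and Kif13a (0.85), and Eps8l2 is an actin regulator of stereocilia. Calm2 was most like Wdr7 (0.90), Uhmk1 (0.90), Hsp90aa1 (0.90), Ano3 (0.90) and Madd (0.89). Calm3 was most like Pclo (0.81), Rnf14 (0.80), Ube2v1 (0.80) and Map2 (0.79), and Pclo and Map2 encode a presynaptic scaffold and a dendritic microtubule protein. Nrgn was most like Myl4 (0.88), Atp2a3 (0.81), Dnajc5b (0.78), March4 (0.78) and Bcas3os1 (0.76). Pcp4l1 had no close match, with Bccip at 0.58 as the highest. Among the 6 themselves, Calml4 and Pcp4 were most alike (0.84), then Calm2 and Pcp4 (0.71) and Calm2 and Calm3 (0.61), while Calm3 and Nrgn were at 0.0014.

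The promoters of the paralogues Pcp4 and Pcp4l1, whose levels in OHC-like cells lay far apart, are shown for their base content. They are the 250 bases before the RefSeq start sites (GRCm38.p6), at chr16:96467356-96467605 on the plus strand and chr1:171196269-171196518 on the minus strand, and capitals mark CG dinucleotides. Pcp4 had 3 and Pcp4l1 5 of these, against 8 in Calml4, 11 in Nrgn, 33 in Calm3 and a median of 6 over 32851 promoters of this length.

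Pcp4: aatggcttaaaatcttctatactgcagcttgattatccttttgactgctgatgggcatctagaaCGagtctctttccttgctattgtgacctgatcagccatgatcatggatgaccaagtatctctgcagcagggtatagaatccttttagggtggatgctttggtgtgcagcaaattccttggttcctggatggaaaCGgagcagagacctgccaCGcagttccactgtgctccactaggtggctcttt
Pcp4l1: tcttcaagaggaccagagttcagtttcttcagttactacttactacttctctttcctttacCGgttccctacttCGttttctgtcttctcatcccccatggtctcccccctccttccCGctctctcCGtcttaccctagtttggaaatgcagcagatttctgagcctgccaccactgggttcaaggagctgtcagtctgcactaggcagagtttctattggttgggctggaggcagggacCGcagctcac

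Motifs were searched in these windows on both strands. The E-box CANNTG occurred in 66.2% of all promoters and once each in Calml4 and Nrgn, and CCAAT occurred in 33.9% and once each in Pcp4l1 and Nrgn. CAGCTG, which is 1 form of the E-box, and TATAAA occurred in 13.0% and 12.4% of all promoters and in none of these 5. A match describes letters and not a binding site.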

How the data were processed

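Cochlear cells of 3 libraries (P14, 1 library; P28, 2 libraries) were measured by 3′ single-cell RNA sequencing. The authors deposited filtered count matrices of UMIs per gene and barcode, not normalized. They were made with Cell Ranger, version 5.0.1 per the file headers and 6.0.1 per the submitters' processing notes, on mm10.

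The 6 genes and all gene lists were chosen with earlier results of these data known. Barcodes with 200 to 6000 genes and at most 15% mitochondrial UMIs were kept. Clusters (Seurat 5.3.0, 2000 variable genes, 30 principal components, resolution 1, P28 libraries integrated) were named where at least 3 markers and 50% of a list were raised, the 50% being set after the data were seen. Scrublet marked under 0.5% of barcodes, so it had not worked, and doublets were not removed. UMIs were summed per class and library (10 or more cells) and tested with edgeR 4.0.16 (TMM, quasi-likelihood test, filterByExpr). Libraries pair the sums, which come from the same pooled mice. Correlations of same-library deviations were 0.38 to 0.55 between OHC-like and IHC-like cells, 0.31 to 0.33 between OHC-like and other cells, and 0.18 to 0.21 between IHC-like and other cells. The P28 comparisons with SGN-like cells were fitted without a library term, and values with it are given where a call changed.

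The partner genes named were the top 3 by size of change per group and direction among those past the threshold with 30 or more UMIs and the same direction in every library. Some genes that the rules for named genes would give are not reported here. No columns of unmapped samples were found (0). Alternatives were other barcode limits, thinning, clustering settings, filters, DESeq2 1.42.0 and leaving out libraries. Python 3.11.15 and R 4.3.3 were used, and the scripts were tested on simulated data. Promoters are from RefSeq and codons from GENCODE M21.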

Additional observations from a re-analysis of the deposited data

Results flagged for a closer look

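For Calm2, Calml4 and Pcp4 the P14 level lay above both P28 libraries in IHC-like cells and below both in OHC-like cells, though only Calml4 in IHC-like cells was past 2-fold, and not after thinning (log2 ratio 0.56). The log2 ratio of P14 to the P28 mean was higher in IHC-like than in OHC-like cells by 0.88 for Calm2 (0.31 against -0.57), by 1.13 for Calml4 (1.05 against -0.08) and by 1.10 for Pcp4 (0.87 against -0.23). The difference was not tested, since P14 has 1 library.

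Barcodes left out for more than 15% mitochondrial UMIs also held Pcp4. Its level there was 1335 CPM at P14 (498 barcodes, 888 UMIs), 2052 CPM in P28 replicate 1 (5986 barcodes, 16793 UMIs) and 938 CPM in P28 replicate 2 (10778 barcodes, 12624 UMIs). Calm2 stood at 578, 811 and 634 CPM in these barcodes and Calml4 at 238, 242 and 122 CPM.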

How the results depend on the processing

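Of 99 alternatives of the counts of called genes, 74 were within 1.5 times the count reported. The genes called between OHC-like and IHC-like cells numbered 3226, and 2033 with DESeq2, 1678 with at least 10 UMIs in every sum, 1722 with no replicate block, 891 with at most 3000 genes and 15000 UMIs per cell (the stricter limits, which follow the study's methods), 832 after thinning, and 1512 to 4920 without 1 library each. The other counts that moved were, under the stricter limits and after thinning, 4127 and 3756 (of 8812, OHC-like against SGN-like), 1461 and 2489 (of 7737, IHC-like against SGN-like), 2784 and 2396 (of 4533, IHC-like against other cells) and 5262 and 6775 (of 11759, SGN-like against other cells). OHC-like against other cells (7040) gave 4573 after thinning. With at least 10 UMIs the counts were 4863 (IHC-like against SGN-like), 4426 (OHC-like against other cells) and 1856 (IHC-like against other cells). Leaving out libraries gave 2681 to 10455 for OHC-like and 1773 to 7776 for IHC-like against other cells. The cause was not tested, apart from fewer cells under the stricter limits (43 and 22 IHC-like, 163 and 70 SGN-like at P28).

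For OHC-like against IHC-like cells, Calm3 was at 0.48 with DESeq2, 0.51 with no replicate block, 0.34 under the stricter limits, 0.47 without the OHC-like cluster of highest median UMIs (chosen after seeing the data) and 0.45 to 0.59 without 1 library each, and it was not called under the first 4. Calml4 was at 1.04 with no replicate block, 0.70 under the stricter limits (adjusted p = 0.05, edgeR) and 0.93 to 1.5 without 1 library each. Pcp4l1, whose call is not read as a result in this comparison, was at -1.27 with no replicate block and -1.23 under the stricter limits. Directions turned for Calm2, OHC-like against SGN-like, at 0.32 under the stricter limits. For Calm3, OHC-like against other cells, they turned at -0.11 with at least 10 UMIs and -0.052 without the richest OHC-like cluster. Pcp4l1 in that comparison turned at -0.067 with DESeq2, -0.31 under the stricter limits and -0.060 with a 30% mitochondrial limit. It was also at -0.15 without the 5% highest doublet scores, -0.13 without the richest cluster and -0.45 to 0.32 without 1 library each. Scrublet had not worked, so leaving out these scores is no doublet control. For Pcp4, SGN-like against other cells, directions turned at 2.04 under the stricter limits and 0.74 after thinning, and for Pcp4l1 there at 0.10 under the stricter limits. No library could be left out of the SGN-like comparisons, which would leave no residual degrees of freedom.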
